A study of Mus musculus with 7 samples.

Results

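Migratory Ccr7 dendritic cells were taken from droplet single-cell libraries of mouse inguinal subcutaneous fat selected on raw molecule counts of 5 genes. A kept cell was a member when it held at least 20 unique molecular identifiers (UMIs, each a captured mRNA molecule) of Cd74, at least 2 of Ccr7 and at least 1 of Fscn1, with 0 UMIs of Cd3e and 0 of Cd79a, the genes of the T cell and B cell receptor complexes. The gate found 84 members among 39566 kept cells, of 45514 deposited barcodes. They were 49 cells of old mice and 35 cells of young mice. Because the members were chosen by Cd74, Ccr7, Fscn1, Cd3e and Cd79a, their values are given as a description. The other genes played no part in the gate, but they were read in cells picked for their RNA, so that a difference from other dendritic cells says what came together with the gated genes.

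The libraries held the stromal vascular fraction, the cells other than adipocytes that collagenase digestion frees from fat, of female C57BL/6N mice. Old mice were 18 months of age (3 libraries) and young mice were 11 to 12 weeks of age (4 libraries), and no allele or agent set the groups apart. Red cells were lysed and the suspension passed through a mesh, without a sort, per the labels' protocols, and the labels used here do not state how many mice a library holds. Median depth of the kept cells was 6130 to 8028 UMIs in the old libraries and 9327 to 14100 UMIs in the young libraries, and any pair of libraries shared at most 19 kept barcodes.

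Dendritic cells take up antigen in a tissue, and on maturation they switch on the chemokine receptor CCR7, which guides them through lymphatic vessels to the draining lymph node, and fascin, the actin-bundling protein encoded by Fscn1 that shapes their long processes. The same program raises costimulatory and checkpoint ligands, cytokines and the NF-kappa-B factor RelB, while uptake receptors are shut down. Type 1 dendritic cells, marked by Xcr1 and Clec9a, are specialised in presenting antigen to CD8 T cells, and type 2 dendritic cells, marked by Cd209a among others, mainly in priming CD4 T cells. Both kinds can enter the CCR7 state.

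Per member, Ccr7 ranged over 2 to 112 UMIs with a median of 37, Fscn1 over 1 to 155 with a median of 13.5, and Cd74, the invariant chain of MHC class II, over 21 to 1224 with a median of 124. Few cells lay at the edge of Ccr7: 5 members held exactly 2 UMIs and 16 cells outside held 1. Fscn1 had the wider edge, with 8 members at exactly 1 UMI and 123 cells outside at 0. Of Cd74, 10 members held 20 to 29 UMIs, and 7 cells outside held 10 to 19. Members held a median of 11 of 12 marker genes of this state that the gate did not use, among them H2-M2, Il4i1, Socs2 and Cacnb3, and 75 of the 84 held at least 8. Most members thus held most of the markers that the gate left out.

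Some members carried RNA of other cells. Of the 84 members, 7 (2 old, 5 young) held at least 100 UMIs of Dcn, which encodes the fibroblast and progenitor matrix protein decorin, and these held 93.9% of the Dcn and 94.7% of the Col1a1 UMIs of the members. Their median was 7 of the 12 markers. The 5 progenitor markers, all detected, summed to 328 to 4399 CPM (a gene's UMIs divided by all UMIs of the members of a library, times 1000000) in old libraries and to 498 to 13109 CPM in young libraries. The 9 macrophage markers, all detected, summed to 38.2 to 1140 CPM in old libraries and to 31.1 to 1088 CPM in young libraries. B cell markers reached 13.9 CPM, with Pax5 and, by the gate, Cd79a at 0. T cell markers reached 137 CPM, with Cd3g and, by the gate, Cd3e at 0. The T cell list holds Cd8a, which was 3.29 higher on the log2 scale in members than in the Cd209a-gated cells described below. That call was lost under at least 1 alternative. Larger sums were found in single libraries: the 4 endothelial markers reached 860 CPM (370 UMIs) in old library 2, with at most 49.2 CPM in any other library, and the 4 plasmacytoid markers reached 2348 CPM (274 UMIs) in young library 3, with at most 249 CPM in any other. Monocyte markers reached 518 CPM in old and 591 CPM in young libraries, with Chil3 at 0. The part of these RNAs in the results was not tested. The 2 Langerhans cell markers, Epcam and Cd207, summed to 3 UMIs (93.4 CPM) in young library 1, 2 in young library 4 and 1 in old library 2. They had 0 UMIs in the other libraries. Of these UMIs, 1 was of Cd207 and the rest were of Epcam. In old libraries 1 to 3 the demand for 0 UMIs of Cd79a left 9 of 22, 28 of 37 and 12 of 45 cells. B cells there were 3.68, 3.33 and 20.6% of kept cells. In young libraries 1 to 4 the same demand left 3 of 5, 19 of 25, 8 of 21 and 5 of 9 cells. B cells there were 1.53, 1.51, 6.80 and 1.34% of kept cells. The part of B cell frequency in these losses was not tested.

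Young library 1 stood apart. It gave 3 members with 32105 UMIs in all, and these held 0 UMIs of H2-Ab1 (3 counts would be 93.4 CPM), 4 UMIs of H2-Aa and 3 of H2-Eb1, the class II chains that present peptides. H2-Ab1 lay at 2034 to 3393 CPM in the members of the old libraries and at 1585 to 4097 CPM in those of the other young libraries. Type 1 dendritic cells of the same young library 1 held 11114 CPM of H2-Ab1. The gene tests reported here left young library 1 out except where a fit of all 7 libraries is named, and the shares of cells are given with and without it.

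H2-M2, a gene of the class Ib branch of the MHC on chromosome 17 (37480851 to 37483552, minus strand, mm10), was found almost only in the migratory members among the gated dendritic cells. The gates of the other kinds left out every member, and how far this added to the contrast was not tested. At least 1 H2-M2 UMI was in 34 of the 84 members, 18 of 49 in old and 16 of 35 in young libraries. With each cell of at least 4000 UMIs thinned to 4000, the share was 32.1% of 84 members. It was 0.560% of 357 type 1 dendritic cells, 0.281% of 713 Cd209a-gated cells and 0.0863% of 10427 progenitor cells, which serve as the level of free RNA. Without thinning the shares were 40.5%, 0.826%, 0.670% and 0.201%. In CPM, H2-M2 measured 104, 214 and 153 in the members of the old libraries 1 to 3, and 343, 141, 197 and 301 in those of the young libraries 1 to 4. The ages overlapped, with means of 157 ± 55.2 CPM in old and 246 ± 92.6 CPM in young libraries (SD, n = 3 and 4). A few cells carried much of the signal, as the 5 richest members held 38.7% of the 261 H2-M2 UMIs.

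The start of H2-M2 is shown because the gene marks this state and its window holds 2 matches to the consensus of NF-kappa-B, a transcription factor family known from dendritic cell maturation. The stretch runs from 250 bases before to 50 bases after the RefSeq start (chr17:37483505-37483804, minus strand, GRCm38.p6), and capitals mark the matches, which lie on opposite strands and do not overlap.
H2-M2: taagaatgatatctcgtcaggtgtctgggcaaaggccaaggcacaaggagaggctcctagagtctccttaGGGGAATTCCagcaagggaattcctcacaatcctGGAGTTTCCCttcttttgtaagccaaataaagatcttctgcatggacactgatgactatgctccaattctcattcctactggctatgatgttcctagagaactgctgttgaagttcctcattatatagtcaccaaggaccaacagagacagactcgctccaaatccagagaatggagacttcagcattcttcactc

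Dnase1l3 (chromosome 14, 7964533 to 7994573, minus strand), which encodes a secreted DNase that digests chromatin in dead-cell debris and vesicles, was patchier. It was found in 20 of 84 members, 14 of 49 old and 6 of 35 young. After thinning to 4000 UMIs its share was 16.7% of members, against 9.52% of type 1 dendritic cells, 8.70% of Cd209a-gated cells and 0.201% of progenitor cells; without thinning the shares were 23.8%, 16%, 14.1% and 0.539%. Members held 486, 109 and 213 CPM of Dnase1l3 in the old libraries 1 to 3, and 62.3 (2 UMIs), 138, 17.1 (2 UMIs) and 0 CPM in the young libraries 1 to 4. The old mean exceeded the young mean by 215 CPM, but young library 2 lay above old library 2. A single cell of young library 2 held 40 of the 51 Dnase1l3 UMIs of the young members. Without old library 1 the difference between the age means was 107 CPM. With the gate on cells of at least 3000 UMIs, each thinned to 3000, it was 466 CPM. Only 3 libraries held at least 5 members under that gate. Dnase1l3 was too sparse for the age test, and the 5 richest of the 84 members held 71.7% of its UMIs. Both H2-M2 and Dnase1l3 were found in 7 members, H2-M2 alone in 27, Dnase1l3 alone in 13 and neither in 37. Their Spearman correlation over the 84 cells was -0.11, which was not tested.

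**Figure D1:**
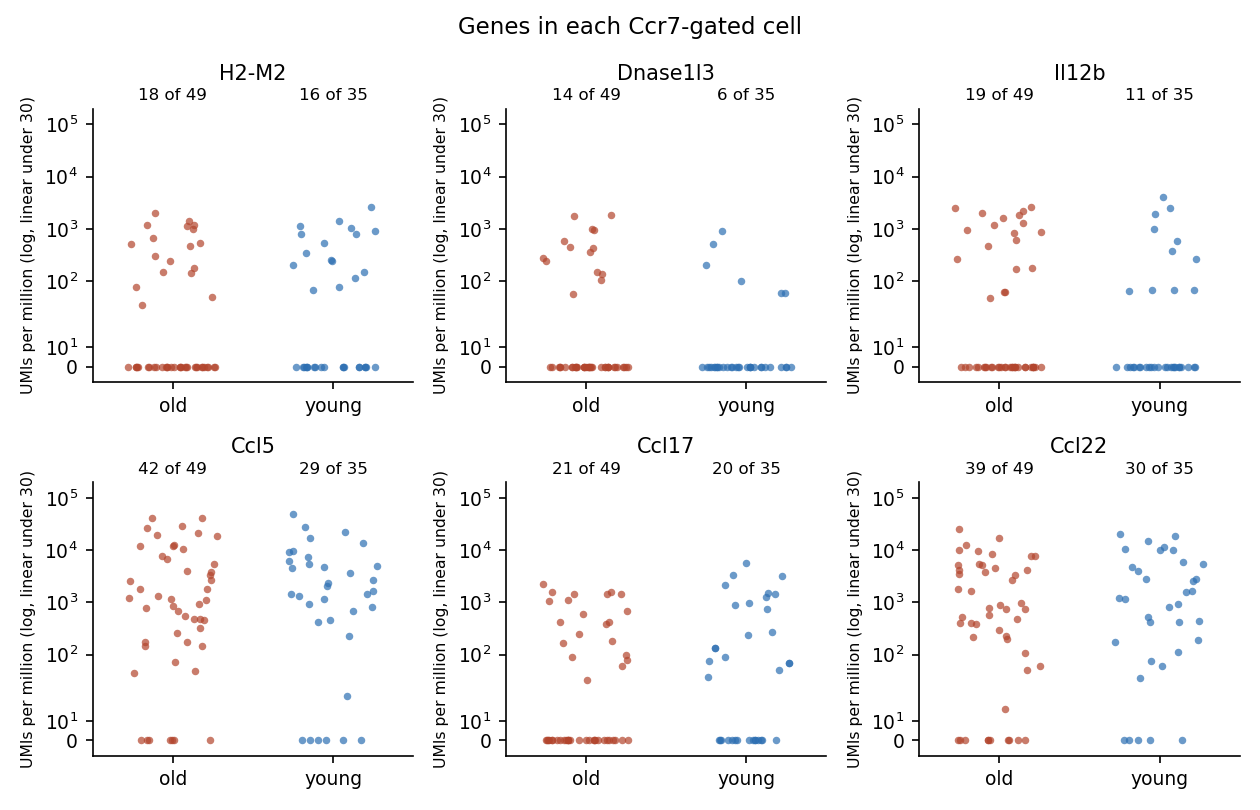
Level per migratory cell in CPM (each dot a cell, log axis that is linear near 0) for H2-M2, Dnase1l3, Il12b, Ccl5, Ccl17 and Ccl22 in old and young libraries, with the number of cells that held a UMI above each column. H2-M2 was found in 18 of 49 old and 16 of 35 young cells, Dnase1l3 in 14 of 49 old and 6 of 35 young cells, and Ccl5 in 42 of 49 old and 29 of 35 young cells.

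The members were no uniform group. Ccl5, a chemokine for T cells and natural killer cells, was found in 71 of the 84 cells and Ccl22, a ligand of CCR4 that draws regulatory T cells, in 69. Ccl17, the other CCR4 ligand, was found in 41, Il12b, the shared subunit of interleukins 12 and 23, in 30, and Aldh1a2, which makes retinoic acid, in 42. All 34 cells with H2-M2 held Ccl5 (27 of 27 after thinning), with a median Ccl5 level of 5163 CPM, against 477 CPM in the 50 cells without H2-M2. Across the 84 cells the Spearman correlation of H2-M2 with Ccl5 was 0.50, and it was 0.69, 0.27 and 0.50 within old libraries 1 to 3 and 0.45 and 0.93 within young libraries 2 and 3. Ccl17 went with Ccl22 instead: 39 of the 41 cells with Ccl17 held Ccl22, whose median was 4657 CPM there and 397 CPM in the cells without Ccl17, and the correlation was 0.54. Ccl22 also went with Aldh1a2 (0.46), and Ccl5 with Apol7c (0.42), an apolipoprotein L gene found in 54 members. Dnase1l3 and Il12b were found together in 11 cells (correlation 0.33, though it was -0.43 within young library 3). These correlations are over cells that share libraries and range from 4210 to 61317 UMIs in depth, and they carry no test.

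Ccl5 and Ccl22 tended to be high in different cells of the old mice. Their Spearman correlation was -0.52 over the 49 old members and 0.13 over the 35 young members, a difference that was not tested. Within libraries it was -0.02, -0.54 and -0.67 in old libraries 1 to 3, and 0.14 and -0.05 in young libraries 2 and 3. The negative value was thus found in old libraries 2 and 3 but not in old library 1.

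**Figure D2:**
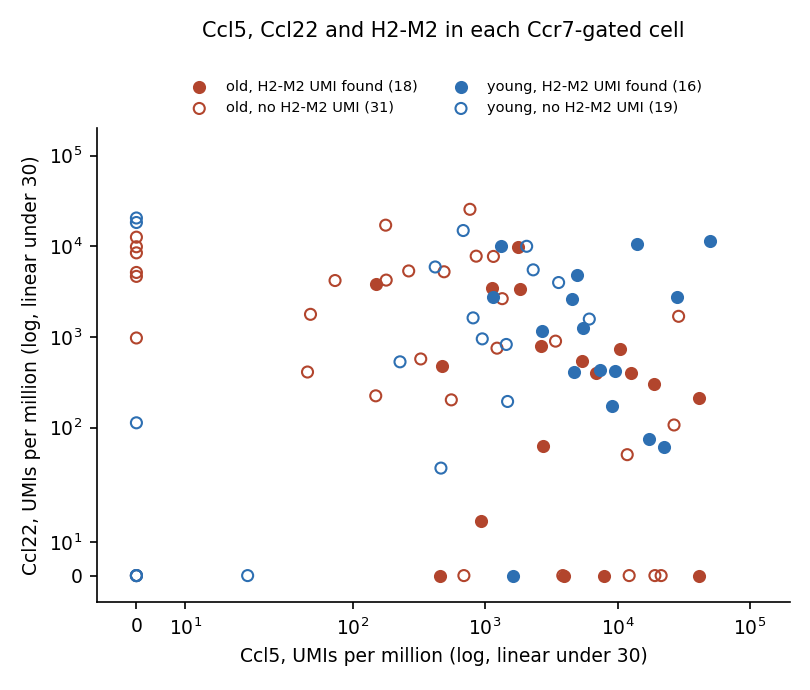
Ccl22 against Ccl5 in each of the 84 migratory cells (CPM, log axes with 0 at the origin), old and young cells by colour, filled where H2-M2 was found. Each of the 34 filled cells lies to the side with Ccl5, and the correlation was -0.52 over old and 0.13 over young cells.

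Next, members were set against the other dendritic cells of the same libraries. Type 1 dendritic cells (at least 20 Cd74 UMIs, 2 UMIs of Xcr1 and Clec9a together and 0 of Cd3e and Cd79a) numbered 363. Cd209a-gated cells (the same with Cd209a, and not type 1) numbered 746 and also had to hold 0 UMIs of Fcgr1. That gene is among the 9 macrophage markers, and the other gates did not use it. The Cd209a gate did not give clean type 2 dendritic cells, since its cells summed to 6729 to 13430 CPM of macrophage markers in old and 6308 to 17720 CPM in young libraries, far above type 1 cells (1567 to 2091 CPM in old and 1396 to 3719 CPM in young). Counts against them are therefore also given, where they differ, for the Cd209a-gated cells with at most 2 UMIs of C1qa, C1qb and C1qc, the macrophage complement genes (the C1q limit). The 3 libraries with at least 10 cells of each kind (old 2, old 3 and young 2) entered a paired fit by edgeR's quasi-likelihood test with Benjamini-Hochberg adjustment over all genes tested. Against type 1 cells, 865 of 6210 genes were higher (13.9%) and 671 lower (10.8%), in all 24.7%. Against Cd209a-gated cells, 675 of 7692 were higher (8.78%) and 626 lower (8.14%), in all 16.9%. With the C1q limit, 662 of 4825 were higher and 573 lower. Both comparisons use the same members, so their values are set side by side and do not back each other.

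The genes that named the state apart from the gate were all higher. Of 12 tested markers, 12 passed against either kind, with a median log2 fold change of 5.82 over type 1 and 6.32 over Cd209a-gated cells, against -0.03 and -0.06 for all genes tested. H2-M2 was 5.11 ± 0.88 higher on the log2 scale than in type 1 cells (SE, adjusted p = 0.0020). All 27 UMIs of H2-M2 in the type 1 cells of these 3 libraries came from 2 cells of old library 3, and the fold change lay between 4.11 and 10.7 with 1 library left out. In the same 3 libraries 168 UMIs in members stood against 2 in Cd209a-gated cells, a ratio of 429 (95% counting interval 117 to 3574). Outside them, 252 CPM of H2-M2 were measured in the Cd209a-gated cells of young library 1. Il4i1, a secreted enzyme that breaks down amino acids and restrains T cells, had 595, 1535 and 439 CPM in the members of old libraries 2 and 3 and young library 2, against at most 4.40 CPM in type 1 cells of any library. Its fold change was 8.37 over type 1 (adjusted p = 1.2e-05) and 6.70 over Cd209a-gated cells (adjusted p = 3.72e-05), or 6.09 with the C1q limit. Socs2, a feedback inhibitor of cytokine signalling, was 7.57 higher than type 1 and 5.94 higher than Cd209a-gated cells. Apol7c was 8.01 higher than type 1 cells and had 0 UMIs in the Cd209a-gated cells of these libraries, at least 877-fold higher in members against a floor of 3 counts over the group. Lad1 and Slco5a1 had 0 UMIs in type 1 cells of the same libraries and were at least 177-fold and 142-fold higher in members. Dnase1l3 was 1.93 higher than type 1 (adjusted p = 0.000377) and 3.55 higher than Cd209a-gated cells (adjusted p = 0.00505), but this call against Cd209a-gated cells was lost without old library 3 (2.92, adjusted p = 0.090). With the C1q limit, Dnase1l3 had 133 UMIs in members and 1 in Cd209a-gated cells (ratio 398, 95% counting interval 70.2 to 15823).

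Genes of migration and the cytoskeleton were higher without exception over type 1 cells, 13 of 13 tested, and in 12 of 13 over Cd209a-gated cells, with median log2 fold changes of 3.49 and 2.48. Cacnb3, a subunit of voltage-gated calcium channels, led the list at 6.52 ± 0.47 over type 1 and 8.14 ± 0.54 over Cd209a-gated cells. Tmem123, a surface mucin also called porimin, averaged 2201 ± 434 CPM in members and 64.9 ± 9.55 CPM in type 1 cells (SD, n = 3 libraries, after scaling by the trimmed mean of M-values). Marcks, Marcksl1 and the myosin Myo1g, which act at the actin cortex, were 1.92, 3.72 and 1.93 higher than in type 1 cells. Serpinb9, an inhibitor of granzyme B, was 3.49 higher than type 1 and 4.66 higher than Cd209a-gated cells. Icam1, the ligand of the integrin LFA-1, was 1.62 higher than type 1 cells (adjusted p = 0.00114) but 0.77 with adjusted p = 0.089 over Cd209a-gated cells.

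Chemokines and cytokines moved in both directions. Over type 1 cells 10 of 14 were higher and 2 lower, and over Cd209a-gated cells 7 of 15 were higher and 1 lower (8 and 2 of 14 with the C1q limit). Ccl5 had 4574, 8178 and 6491 CPM in the members of old libraries 1 to 3 and 18440, 3470, 5595 and 4377 CPM in those of young libraries 1 to 4, against at most 106 CPM in type 1 cells of any library. The fold changes of Ccl5 were 6.98 ± 0.63 over type 1 and 6.55 ± 0.67 over Cd209a-gated cells. Ccl22 (chromosome 8, 94745590 to 94751699, plus strand) had 991, 2182 and 3502 CPM in old and 2959, 3753, 5209 and 154 CPM in young members, and its fold changes were 6.83 ± 0.42 and 7.26 ± 0.56. Young library 4 lay far below the others for Ccl22. Il12b (chromosome 11, 44400063 to 44414033, plus strand) had 764, 344 and 333 CPM in old and 0, 756, 266 and 56.0 CPM in young members, and was 5.00 ± 0.60 and 8.03 ± 0.58 higher. A single cell of young library 2 held 183 of the 296 Il12b UMIs of the young members. Il15 and its receptor chain Il15ra, which together present interleukin 15 to lymphocytes, were 2.79 and 4.82 higher than in type 1 cells, and 2.62 and 4.45 higher than in Cd209a-gated cells (3.74 and 5.51 with the C1q limit). Cxcl16, a membrane-bound chemokine, was 2.78 and 3.18 higher. Tgfb1 was lower, by -1.18 over type 1 (adjusted p = 0.00452) and -1.78 over Cd209a-gated cells (adjusted p = 0.00158). Ccl17 was 3.06 higher than type 1 cells (adjusted p = 0.0289), a call lost with at least 500 genes and at most 5% mitochondrial UMIs per cell (2.72, adjusted p = 0.11) and by DESeq2 (3.44, adjusted p = 0.083), and it was uneven, with 97.2, 132 and 749 CPM in old and 93.4, 397, 917 and 896 CPM in young members.

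Costimulation and checkpoint genes were higher in 13 of 15 tested over type 1 and 11 of 15 over Cd209a-gated cells (10 of 14 with the C1q limit), and none was lower. Cd40, through which helper T cells license dendritic cells, measured 272, 221 and 333 CPM in old and 405, 344, 206 and 441 CPM in young members. It was 4.01 ± 0.42 higher than in type 1 and 3.22 ± 0.24 higher than in Cd209a-gated cells. The inhibitory ligands Cd274, which encodes PD-L1, and Cd200 were 3.66 and 3.57 higher than in type 1 cells, and 4.11 and 3.21 higher than in Cd209a-gated cells. Tnfrsf4, the OX40 receptor, was 5.87 and 6.33 higher, and Tnfrsf9 had 60 UMIs in members against 1 in type 1 cells (ratio 281, 95% counting interval 48.6 to 11296). Aldh1a2 was 3.87 and 3.33 higher. The B7 ligand Cd86 averaged 167 ± 64.2 CPM in members and 168 ± 47.6 CPM in type 1 cells (adjusted p = 0.91, and the sign of its fold change turned under 5 alternatives). Cd80, the other B7 ligand, was 2.04 higher than type 1 cells with adjusted p = 0.038, a call lost without any 1 of the 3 libraries (1.48 to 2.44, adjusted p 0.069 to 0.25).

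The NF-kappa-B and survival genes were higher in 18 of 18 tested over type 1 cells and in 16 of 18 over Cd209a-gated cells, or 12 of 18 with the C1q limit, and none was lower. Relb, whose product pairs with the Nfkb2 product in the noncanonical pathway, had 590, 583 and 541 CPM in old and 530, 412, 326 and 364 CPM in young members, against at most 50.6 CPM in type 1 cells of any library. It was 3.81 ± 0.27 and 3.37 ± 0.24 higher, and Nfkb2 was 2.56 and 2.37 higher. The canonical subunit Nfkb1 was 0.88 higher than type 1 cells (adjusted p = 0.0153, not passing without old library 3 or young library 2, at 0.77 and 0.71) and 0.17 over Cd209a-gated cells (adjusted p = 0.75, with a negative sign under 6 alternatives). Birc2, Traf1 and Bcl2l1, which hold back cell death, were 3.64, 2.56 and 1.93 higher than type 1 cells, and 3.21, 2.55 and 2.49 higher than Cd209a-gated cells. Stat4, a mediator of interleukin 12 signals, was 4.94 and 2.70 higher, the value over Cd209a-gated cells not passing with the gate on thinned cells (1.72, adjusted p = 0.074). With the C1q limit Traf1 was 1.70, Bcl2l1 3.18 and Stat4 1.72 higher.

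**Figure D3:**
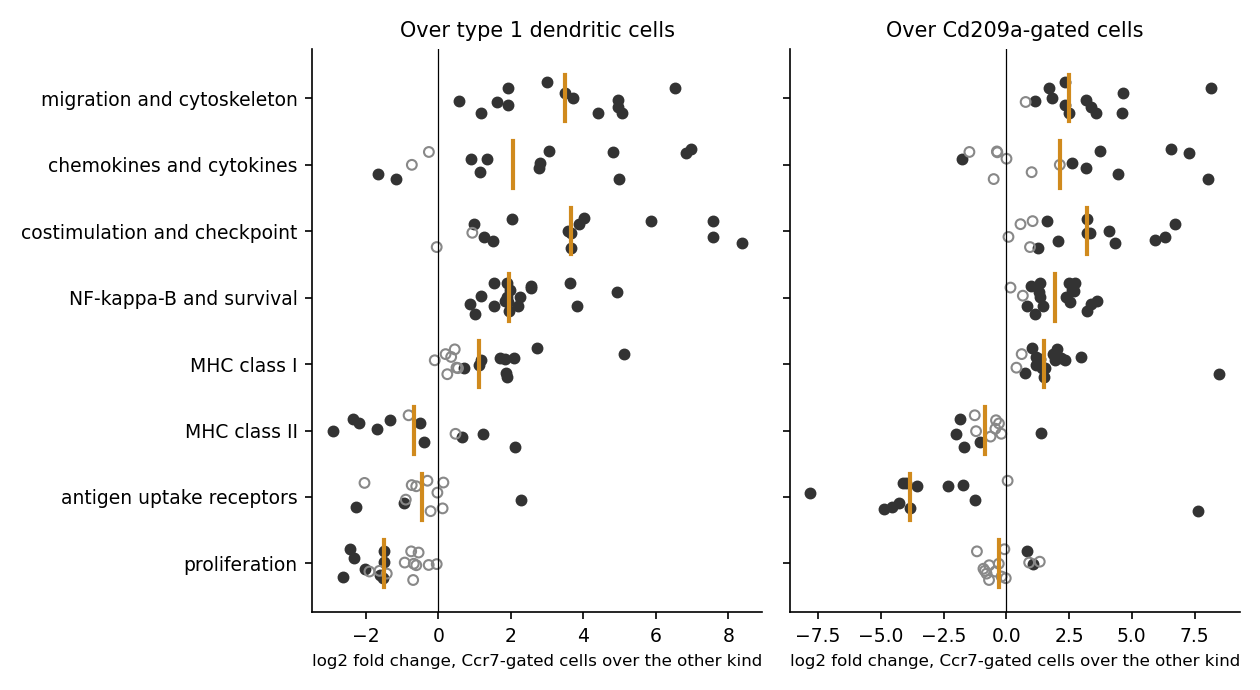
Log2 fold change of each tested gene of 8 gene lists, members over type 1 dendritic cells and over Cd209a-gated cells (filled where adjusted p was under 0.05, open where not; the bar is the list's median). The migration list lies above 0 throughout, with medians of 3.49 and 2.48, and the uptake receptors lie at a median of -0.45 over type 1 and -3.83 over Cd209a-gated cells.

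The promoters of NF-kappa-B and class I genes are shown because these lists were higher together. Of the 524 genes higher than both kinds, 405 matched a RefSeq start, and 54 of these (13.3%) held the NF-kappa-B consensus on either strand within 250 bases before and 50 after a start. The share was 6.67% of the 4770 matched genes tested in both comparisons and 5.14% of 27025 genes with a start. Of the 17 genes named as the largest increases by kind, 14 matched a start and 1 of these (7.14%) held the consensus. Every stretch shown holds a match, so the stretches do not give the share of matches in their lists. Capitals mark the consensus, and overlapping matches are merged. The stretches are B2m (chr2:122147437-122147736, plus strand), H2-K1 (chr17:34000284-34000583, minus strand), Nfkbia (chr12:55492598-55492897, minus strand) and Rel (chr11:23770920-23771219, minus strand), all from RefSeq on GRCm38.p6. A match is a run of letters and says nothing of binding, and the windows of Ccl22 and Il12b held none.
B2m: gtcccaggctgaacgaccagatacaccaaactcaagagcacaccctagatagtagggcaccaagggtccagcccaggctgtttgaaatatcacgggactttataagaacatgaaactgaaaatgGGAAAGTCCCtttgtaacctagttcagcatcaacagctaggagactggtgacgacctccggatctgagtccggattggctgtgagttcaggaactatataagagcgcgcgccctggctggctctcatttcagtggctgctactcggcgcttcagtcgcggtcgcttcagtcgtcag
H2-K1: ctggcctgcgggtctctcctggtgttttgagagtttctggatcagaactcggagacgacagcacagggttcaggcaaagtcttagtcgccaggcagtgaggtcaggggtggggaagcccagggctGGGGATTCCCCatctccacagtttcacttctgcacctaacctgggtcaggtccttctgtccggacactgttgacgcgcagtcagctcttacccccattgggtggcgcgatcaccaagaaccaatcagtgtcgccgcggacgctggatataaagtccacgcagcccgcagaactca
Nfkbia: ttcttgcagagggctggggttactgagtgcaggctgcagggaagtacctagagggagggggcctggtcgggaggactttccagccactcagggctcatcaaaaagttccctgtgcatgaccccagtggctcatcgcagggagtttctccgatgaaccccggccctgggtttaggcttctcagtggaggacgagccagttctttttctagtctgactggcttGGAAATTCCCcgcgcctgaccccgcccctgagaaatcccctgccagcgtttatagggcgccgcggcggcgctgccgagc
Rel: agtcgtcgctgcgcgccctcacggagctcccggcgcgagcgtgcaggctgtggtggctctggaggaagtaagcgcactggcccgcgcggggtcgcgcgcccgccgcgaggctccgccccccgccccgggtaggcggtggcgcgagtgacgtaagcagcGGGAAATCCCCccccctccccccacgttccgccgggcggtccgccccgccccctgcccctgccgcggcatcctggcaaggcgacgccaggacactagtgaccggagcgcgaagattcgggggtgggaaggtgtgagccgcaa

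Class I genes were higher in part and none was lower, while class II genes were mixed. Of 17 class I genes, 10 were higher than in type 1 cells and 15 higher than in Cd209a-gated cells. H2-K1 averaged 3536 ± 784 CPM in members and 1065 ± 84.9 CPM in type 1 cells (log2 fold change 1.71), and B2m, the light chain, 4597 ± 666 CPM in members and 1256 ± 81.1 CPM in type 1 cells (1.86). Their fold changes over Cd209a-gated cells were 1.19 and 1.34. Nlrc5, the class I transactivator, was 2.73 and 2.97 higher. H2-Q6 and H2-Q7, near-identical copies whose reads may be split, were 1.90 and 2.08 higher than in type 1 cells. The peptide transporter genes Tap1 and Tap2 and the immunoproteasome genes Psmb8 and Psmb9 were higher than in Cd209a-gated cells by 1.84, 1.56, 1.93 and 2.03. Over type 1 cells, which had high levels of these 4 genes, the values were 0.50, 0.20, 0.35 and -0.10, and none passed (adjusted p 0.11 to 0.75), although Tap1 did without called doublets (0.67, adjusted p = 0.038). The sign of each turned under at least 1 alternative. Tap2 missed the threshold over Cd209a-gated cells without old library 3 (1.40, adjusted p = 0.053), and Tap1 with Ccr7 at 1 UMI or more (1.09, adjusted p = 0.062).

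Of 12 class II genes, 7 were lower and 3 higher than in type 1 cells, and 4 lower and 1 higher than in Cd209a-gated cells (8 lower and 1 higher with the C1q limit). The peptide loaders H2-DMa and H2-DMb1 were lower in both comparisons, at -2.19 and -2.37 over type 1 and -1.85 and -2.01 over Cd209a-gated cells. H2-DMb1 averaged 153 ± 61.9 CPM in members and 778 ± 278 CPM in type 1 cells. H2-Ob and H2-Oa, which hold the loaders in check, were -2.92 and -1.69 over type 1 cells. H2-Ab1 was -1.33 over type 1 (adjusted p = 0.000185) and -1.07 over Cd209a-gated cells (adjusted p = 0.0263), not passing against Cd209a-gated cells without old library 2 (-1.08, adjusted p = 0.071) or old library 3 (-0.76, adjusted p = 0.085), or with the gate on thinned cells (-1.17, adjusted p = 0.086). Ifi30, a thiol reductase that opens antigens in lysosomes, was higher, by 2.11 and 1.37 (0.74 over Cd209a-gated cells with the C1q limit), and did not pass over Cd209a-gated cells with Ccr7 at 1 UMI or more (0.87, adjusted p = 0.060). The asparagine protease Lgmn was 1.23 higher than type 1 cells, not passing without old library 2 (0.91, adjusted p = 0.083) or old library 3 (1.05, adjusted p = 0.065), but -1.70 over Cd209a-gated cells, with -0.73 (adjusted p = 0.22) with the gate on thinned cells and 0.89 with the C1q limit. H2-Eb2, outside the list, was 6.99 higher than in type 1 and 6.43 higher than in Cd209a-gated cells.

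Antigen uptake receptors were mostly lower than in Cd209a-gated cells, 11 of 13, and 10 of 13 with the C1q limit. Mrc1, the mannose receptor, was -4.54 (-2.47 with the C1q limit), and the lectins Clec10a and Mgl2 were -4.12 and -3.99. Members held 2 UMIs of the lectin Cd209d, against 2418 in Cd209a-gated cells, which were 237-fold higher (95% counting interval 65.4 to 1955), or 57.4-fold with the C1q limit (343 UMIs, 95% counting interval 15.8 to 476). Over type 1 cells, which hold little of these lectins, 2 of 12 receptors were lower and 1 higher. Fcgr2b, the inhibitory Fc receptor, was lower in both comparisons (-2.27 and -3.57). Ly75, which encodes the endocytic receptor DEC-205, was the exception, 2.28 higher than in type 1 cells and at 143 UMIs against 3 in Cd209a-gated cells (ratio 244, 95% counting interval 81.7 to 1195).

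Genes that tell type 1 and type 2 dendritic cells apart were not uniformly kept. Of 10 type 1 identity genes tested, 7 were lower than in type 1 cells, among them Tlr3 (-4.42), Cadm1 (-3.56), Wdfy4 (-4.18) and Naaa (-4.65). Irf8, the factor type 1 cells depend on, was -0.92 over type 1 (adjusted p = 0.0283, but -0.51 with adjusted p = 0.19 without old library 2, -0.67 with 0.063 without called doublets and -0.72 with 0.14 without the members rich in Dcn) and 2.91 over Cd209a-gated cells (adjusted p = 0.000874). Batf3, its partner, averaged 155 ± 57.9 CPM in members and 111 ± 18.4 CPM in type 1 cells (adjusted p = 0.27). Xcr1 was found as 3, 1 and 0 UMIs in the members of old libraries 1 to 3 and as 0, 7, 0 and 0 UMIs in those of young libraries 1 to 4. Of 7 type 1 identity genes tested against Cd209a-gated cells, 2 were higher and none was lower (2 and 1 of 6 with the C1q limit). On the type 2 side, 3 of 10 identity genes were higher than in type 1 cells, among them Sirpa (2.49), and 1 was lower. The median log2 fold change of these 10 was 0.12. Against Cd209a-gated cells, 8 of 11 type 2 identity genes were lower and 1 higher. Cd209a itself, which chose the other kind, had 0, 3 and 0 UMIs in old and 0, 14, 3 and 26 UMIs in young members.

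Lipid and interferon genes were higher in part. Fabp5, a fatty acid carrier, had 2397, 2996 and 2557 CPM in old and 1028, 1940, 2973 and 364 CPM in young members, against at most 39.6 CPM in type 1 cells of any library. Its fold changes were 6.51 ± 0.28 and 5.30 ± 0.29. Of 13 lipid and cholesterol genes, 8 were higher and 1 lower than in type 1 cells, and of 14, 5 were higher and 3 lower than in Cd209a-gated cells (5 and 0 of 13 with the C1q limit). The cholesterol exporter Abcg1 was 1.67 and 1.47 higher. Of 17 interferon response genes, 8 were higher than in type 1 cells, and of 23, 4 were higher and 4 lower than in Cd209a-gated cells (5 and 3 of 17 with the C1q limit). Gbp2 and Mx1 were higher in both comparisons, by 2.73 and 2.23 over type 1 cells and by 2.54 and 2.83 over Cd209a-gated cells. Of 19 proliferation genes, 8 were lower than in type 1 cells, with Stmn1 at -2.43 (not passing by DESeq2, adjusted p = 0.18) and Hmgb2 at -1.49. Of 15 tested against Cd209a-gated cells, 2 were higher and none was lower (1 higher and 1 lower of 12 with the C1q limit).

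Old and young libraries did not differ detectably in the share of these cells. Members were 0.136% (95% exact Clopper-Pearson interval 0.0621 to 0.257), 0.376% (0.250 to 0.543) and 0.195% (0.101 to 0.341) of kept cells in old libraries 1 to 3. They were 0.0639% (0.0132 to 0.187), 0.322% (0.194 to 0.502), 0.279% (0.120 to 0.549) and 0.0851% (0.0276 to 0.199) in young libraries 1 to 4. The means were 0.236 ± 0.125% in old and 0.187 ± 0.132% in young libraries (SD, n = 3 and 4), a difference of 0.0483 percentage points (two-sided exact permutation test, p = 0.66; the smallest p the design allows is 0.0286). The old libraries were shallower. With cells of at least 3000 UMIs thinned to 3000 before gating, and cells under 3000 left out, the difference was 0.0822 points (exact permutation p = 0.26). Without young library 1 it was 0.00714 points, and without old library 2 it turned to -0.0218 points. As a share of the gated dendritic cells, members made up 6.57, 9.49 and 6.35% in old and 8.33, 8.15, 9.76 and 2.26% in young libraries. The means were 7.47 ± 1.75% in old and 7.13 ± 3.32% in young libraries (difference 0.343 points, exact permutation p = 0.94). Without young library 1 the difference was 0.746 points, and without young library 4 or old library 2 it turned to -1.28 and -0.667 points. With the C1q limit it was 4.23 points (exact permutation p = 0.34).

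**Figure D4:**
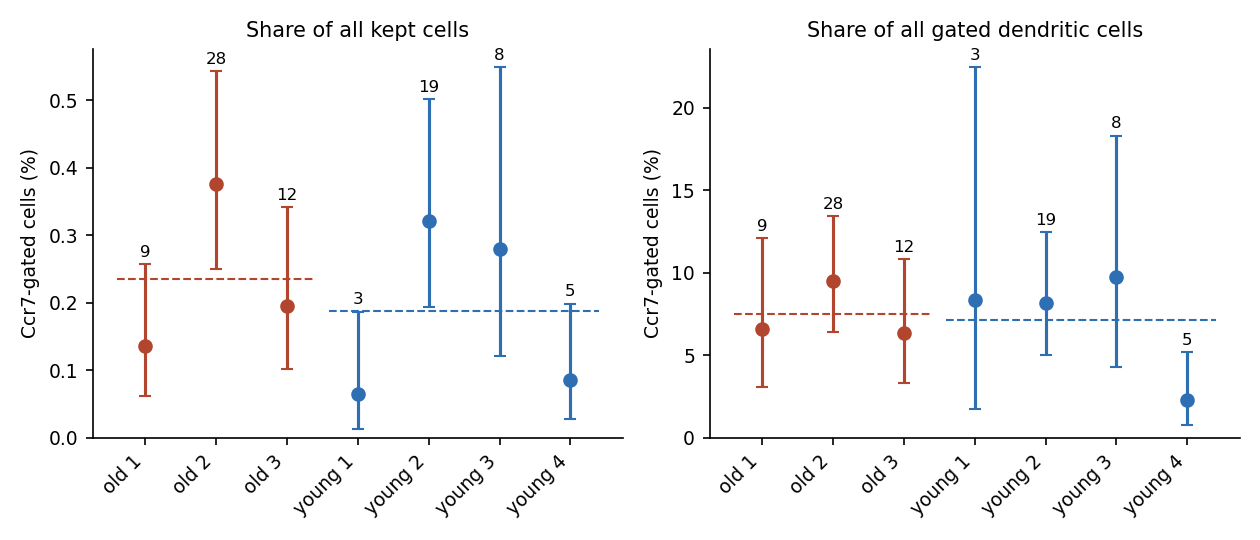
Members as a share of kept cells and as a share of gated dendritic cells in each old and young library (points with 95% exact binomial intervals, member counts above, dashed lines at the age means). The ages overlap on both scales, with means of 0.236% in old and 0.187% in young libraries and of 7.47% in old and 7.13% in young libraries.

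Gene levels were compared between ages over the 3 old and 3 young libraries with at least 5 members, by edgeR's quasi-likelihood test. The plan gave values only and no test for so few members, and the minimum of 5 was set after seeing the data. Of 2369 genes, 4 were higher in old (0.169%) and 23 lower (0.971%), in all 1.14%, and 20.4% had ages that did not overlap. H2-M2 was -0.44 ± 0.40 (SE, adjusted p = 0.72), and between -0.67 and -0.08 with 1 library left out, nearest 0 without young library 4. Without the members rich in Dcn, in the same 6 libraries, it was -1.31 (adjusted p = 0.72). No tested gene of the migration, chemokine, costimulation, NF-kappa-B, class I, class II and uptake lists passed in edgeR's test. An unadjusted p under 0.05 was found for 325 of all 2369 genes (13.7%), and for 1 of 13 migration genes, 2 of 10 chemokines and cytokines, 1 of 13 costimulation genes, 2 of 17 NF-kappa-B genes, 4 of 16 class I genes, 1 of 8 class II genes and 2 of 5 uptake receptors. Among these were Nfkb1 (-1.13, adjusted p = 0.085), the lectin Clec10a (-2.42, adjusted p = 0.11) and the inflammatory cytokine gene Il1b (-1.72, adjusted p = 0.11). By DESeq2, Clec10a (-2.53, adjusted p = 0.0218) and Il1b (-1.72, adjusted p = 0.0172) passed as lower, and no other gene of these 7 lists did. Of the immediate early genes, which also rise on tissue handling, 9 of 16 had an unadjusted p under 0.05 by age, with a median log2 fold change of -0.81 against -0.02 for all genes tested, and their part in the age results was not tested.

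Among the 23 lower genes were fibronectin and 5 collagen genes. Fn1, which encodes fibronectin, had 19.4, 37.2 and 16.4 CPM in the members of old libraries 1 to 3 and 471, 1585 and 805 CPM in those of young libraries 2 to 4 (log2 fold change -5.17, adjusted p = 0.00408). Col1a1 had 194, 27.9 and 98.4 CPM in old and 1242, 2896 and 2304 CPM in young members of the same libraries (-4.49). Postn, Meg3 and Col3a1 were -5.56, -6.44 and -4.22. The 5 young and 2 old members with at least 100 Dcn UMIs held 94.7% of the Col1a1 UMIs. Without these 7 cells, and with the same 6 libraries, no gene of 1881 tested passed (130 had an unadjusted p under 0.05), Fn1 stood at -2.33 with adjusted p = 0.20, and Col1a1 did not pass the filter on low counts. Young library 4 then kept 3 members, and with it left out too no gene of 2408 passed (155 had an unadjusted p under 0.05), against 14 genes where that library alone was left out. Members called as doublets were 1, 4 and 1 in old and 0, 2, 1 and 3 in young libraries, and without them 1 gene passed in the same 6 libraries, or 2 with young library 4, down to 2 members, left out. Of the other lower genes, Apod, Col1a2, Ccdc80, Adamts2 and Ddr2 were -4.43, -4.17, -4.12, -4.02 and -3.95. Klf4, a factor of type 2 dendritic cells, and Nr4a1, an immediate early gene, were -1.77 and -2.08 with the 7 cells, and -0.70 and -1.29 without them in the same 6 libraries.

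The genes higher in old members were Epsti1, Zmynd15, Gclc and Laptm4b. Epsti1, an interferon-induced gene, had 2850, 2106 and 1874 CPM in old libraries 1 to 3 and 347, 960 and 406 CPM in young libraries 2 to 4 (log2 fold change 1.95, adjusted p = 0.0364). Young library 1, outside the fit, had 2398 CPM (77 UMIs in 3 members), within the old range. Epsti1 did not stand out by age in other dendritic cells, at 126, 131 and 104 CPM in type 1 cells of the old libraries and 98.1, 128, 110 and 148 CPM in those of the young libraries. In Cd209a-gated cells it had 157, 182 and 88.8 CPM in old and 214, 126, 84.8 and 113 CPM in young libraries, and the difference between kinds was not tested. Zmynd15, a zinc finger gene, had 356, 272 and 290 CPM in old libraries and 61.8, 34.3 and 70.0 CPM in young libraries 2 to 4 (2.35, adjusted p = 0.0181), and 779 CPM (25 UMIs) in young library 1. Gclc, which catalyses the first step of glutathione synthesis, had 207, 205 and 148 CPM in old libraries and 62.3 (2 UMIs), 50, 25.7 and 35 CPM in young libraries 1 to 4 (2.16, adjusted p = 0.0181). Of these 4 genes it alone had ages that did not overlap with young library 1 included. The 2 UMIs of Gclc there lie under 3 counts (93.4 CPM), and the share of all genes without overlap over the 7 libraries was not counted. Laptm4b, a lysosomal membrane protein gene, had 110, 79.0 and 126 CPM in old libraries and 187 (6 UMIs), 5.89, 0 and 21 CPM in young libraries 1 to 4 (3.46, adjusted p = 0.0312). With the 7 members rich in Dcn left out of the same 6 libraries, the fold change was 1.52 for Epsti1, 1.84 for Zmynd15, 1.95 for Gclc and 5.22 for Laptm4b, with adjusted p 0.062 to 0.33. With all 7 libraries in the fit no gene passed (187 had an unadjusted p under 0.05), and none passed without old library 3 (333 had an unadjusted p under 0.05) or with at least 3 Ccr7 UMIs in the gate (195).

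**Figure D5:**
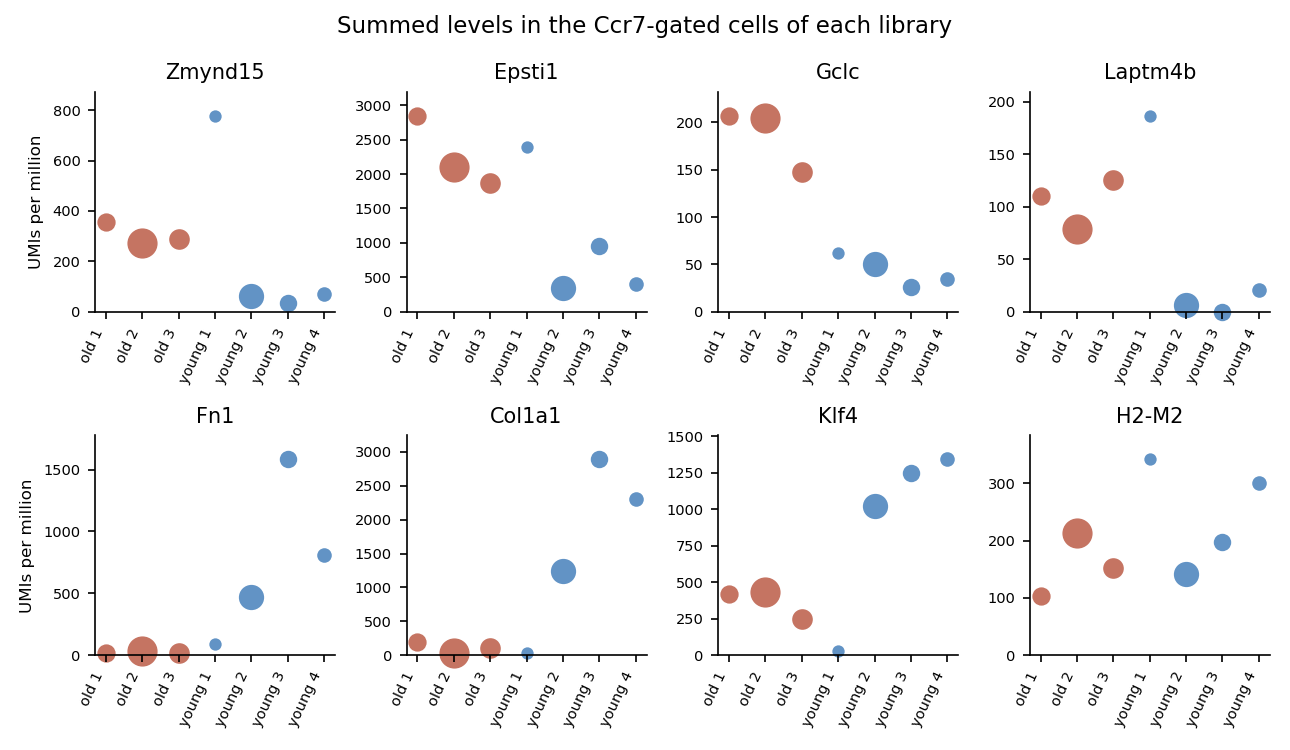
CPM of 8 genes in the members of each old and young library (dot size gives the number of members, 3 to 28). Zmynd15, Epsti1, Gclc and Laptm4b are higher in the old libraries than in young libraries 2 to 4, and Fn1, Col1a1 and Klf4 lower, while young library 1, with 3 members, lies at 779 CPM for Zmynd15 and 2398 CPM for Epsti1.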

How the data were processed

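The deposited gene-by-cell matrices hold counts of UMIs for 27998 genes, made by the authors with Cell Ranger 4.0.0 on mm10, per the submitters' processing notes. A barcode was kept as a cell with 500 or more UMIs, 300 or more detected genes and a mitochondrial share of UMIs up to 15%. The members, gene lists and tests were chosen with earlier results of these data known. UMIs were summed per library and kind of cell. Genes were tested with edgeR 4.0.16 (quasi-likelihood, TMM scaling, filterByExpr, Benjamini-Hochberg adjustment at 0.05), which in simulated data recovered 90% of genes changed by 2 log2 units and 17% of those changed by 1 in the comparison by age (2369 genes), 87% and 11% against type 1 cells (6210 genes), and 68% and 11% against Cd209a-gated cells (7692 genes). The simulation gave every gene the same dispersion and added no effect of library or of single cells. Recovery in the real data may therefore be lower. DESeq2 1.42.0 was an alternative. The planned age test of genes needed 10 members per library, which 1 young library had. With fewer than 2 such libraries at an age, the plan gave values only and no test. A minimum of 5 was set after seeing the data, so the gene tests by age depart from the plan. Shares were compared by exact permutation over libraries (scipy 1.17.1). Intervals and floors cover counting error only, and p-values measure the spread between libraries, which may be technical. Doublets were called with Scrublet in scanpy 1.11.5 and kept, with an alternative without them. The genes named were, by age, up to 10 of the largest changes in each direction with at least 20 CPM, and, by kind, the 10 largest increases and 6 largest decreases with at least 100 CPM, together with genes of the lists by lowest p or role. Old libraries held 52336665 to 73199573 UMIs and young libraries 57841640 to 99516882 UMIs.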

Additional observations from a re-analysis of the deposited data

Results flagged for a closer look

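In the members of the 4 young libraries, 13 of 120 values had a highest or lowest library far from the other 3 by Dixon's criterion on the gap over the range, which chance gives in about 1 of 20 groups. Young library 1, with 3 members, was the highest for Ccl5 at 18440 CPM, H2-K1 at 4766 CPM, H2-Q7 at 1059 CPM, H2-Q6 at 716 CPM and Tspan3 at 1152 CPM. It was also the highest for Il4i1 at 872 CPM, Zmynd15 at 779 CPM, Icosl at 343 CPM, Slco5a1 at 187 CPM and Laptm4b at 187 CPM, and the lowest for Nfkb1 at 93.4 CPM. Young library 3 was the highest for Birc3 at 386 CPM and for the macrophage gene Folr2, at 60.0 CPM against 0 in the other 3 young libraries.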

How the results depend on the processing

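With 84 members, and 3 to 28 in a library, the data limit what could be seen by age more than by kind of cell. The age difference in the share of kept cells turned to -0.0189 points with Ccr7 at 1 UMI or more, and lay between -0.0218 and 0.0983 points with 1 library left out. In the share of gated dendritic cells it turned to -1.62 points with Ccr7 at 1 UMI or more and to -1.28 points with the replicate number as a block, and lay between -1.28 and 1.22 points with 1 library left out. The count of 27 genes that differed by age was 2 without called doublets (1 with the same 6 libraries kept), 93 with Ccr7 at 1 UMI or more, 0 with Ccr7 at 3 or more (195 with an unadjusted p under 0.05), 0 without the members rich in Dcn (155, or 130 with the same 6 libraries kept), 7 with the replicate block, 79 by DESeq2, 306 with no filter on low counts and 0 with libraries of at least 3 members (187). With 1 library left out it lay between 0 and 65, at 65 without young library 2, 14 without young library 4, 4 without old library 2 and 0 without old library 3 (333). H2-M2 turned to 0.14 by age with the replicate block. The Dnase1l3 difference of 215 CPM was 466 CPM with the gate on cells thinned to 3000 UMIs, where 3 libraries held at least 5 members. DESeq2 called 976 genes against type 1 cells, where edgeR called 1536, and 654 genes differed from Cd209a-gated cells without old library 3, where all libraries gave 1301 and leaving 1 out gave 654 to 1507. Young library 4 fell under 5 members without doublets (2 left) and without the members rich in Dcn (3 left), so these counts rest on 5 libraries except where 6 are named. The cause of these shifts was not tested.

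Deviations from the age mean over 3551 genes correlated at -0.055, -0.052 and -0.077 between same-numbered libraries. With so few members a library these deviations hold much counting error, so the values cannot settle whether the replicate numbers pair the libraries.

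Signs that turned belonged to genes that had not passed, apart from Lgmn over Cd209a-gated cells (0.89 with the C1q limit). Over type 1 cells, Cd86 was 0.0975 without doublets, 0.0237 with Ccr7 at 3 or more, 0.0502 with Cd74 at 40 or more, 0.119 without the members rich in Dcn and -0.160 to 0.0162 with 1 library left out, the highest without old library 2. Psmb8 was -0.32, Tap1 -0.28 and Tap2 -0.19 with Ccr7 at 1 or more, Tap1 was -0.0257 with at least 3 cells a library, and Psmb9 was 0.0623 without doublets and 0.0525 without the members rich in Dcn. Over Cd209a-gated cells, Nfkb1 was -0.0888 with at least 500 genes and at most 5% mitochondrial UMIs, -0.12 with Ccr7 at 1 or more, -0.29 with the thinned gate, -0.45 with the C1q limit, -0.180 to 0.428 with 1 library left out (negative without young library 2) and -0.0760 with at least 3 cells a library, and Tnfaip3 was -0.000382 with the C1q limit. Of the other values of named genes, 47 over type 1 cells, 50 over Cd209a-gated cells and 124 by age lost their call, and 1266, 1274 and 143 kept direction and call. The age test was not run with the thinned gate or with at least 10 or 20 members a library, nor type 1 cells with the thinned gate or either kind with at least 20, since too few libraries were left. The alternatives with members rich in Dcn left out, the C1q limit, at least 3 cells a library and the same 6 libraries kept were chosen after seeing the data.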

Other observations

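Several genes were far higher in the members than in other dendritic cells. The first given here, Nudt17, is among the 12 markers of the state already counted above. Nudt17, a Nudix hydrolase gene, had 279, 188 and 301 CPM in the members of old libraries 1 to 3 and 249, 244, 120 and 98.0 CPM in those of young libraries 1 to 4. It was 7.97 higher on the log2 scale than in type 1 cells by edgeR's quasi-likelihood test (adjusted p = 1.15e-06), and 219 UMIs in members stood against 1 in Cd209a-gated cells of the 3 libraries tested (ratio 1119, 95% counting interval 199 to 44407). Ankrd33b had 170 UMIs in members against 1 in type 1 cells (ratio 797, 95% counting interval 141 to 31669) and was 4.22 higher than in Cd209a-gated cells. Serpinb6b, a serpin gene, was 4.20 and 7.40 higher, and Bcl2l14 was 3.32 and 7.61 higher. Among the genes furthest below type 1 cells were Sept3 (2 UMIs in members against 725, 77.3-fold higher in type 1 cells, 95% counting interval 21.3 to 640), Unc119 (-4.35), Tm6sf1 (-3.97) and Plbd1 (-3.94).

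Immediate early genes, which rise on stimulation and also on tissue handling, were mixed. Of 17 tested, 2 were higher and 3 lower than in type 1 cells, and 1 was higher and 8 lower than in Cd209a-gated cells (1 and 7 with the C1q limit). Nr4a3 was 2.46 and 2.17 higher, while Fos was -0.99 and -1.24. By age 1 of 16, Nr4a1, passed as lower in old members by edgeR's test. DESeq2 called Atf3 (-1.72), Fosb (-1.28) and Nr4a1 (-2.07) as lower, and the heat shock gene Hspa1a (-2.42). Of 12 heat shock genes, 1 was lower than in type 1 cells and 4 lower than in Cd209a-gated cells (1 with the C1q limit).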
